A study of Oryza sativa Japonica Group with 8 samples.

Results

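LAX1, LAX2, MOC1 and TB1 are 4 rice genes that control whether axillary meristems form and grow out, and they were followed here in young inflorescences of an osg1l2 mutant and of wild type. They were taken by their RAP identifiers: Os01g0831000 for LAX1, Os04g0396500 for LAX2, Os06g0610350 for MOC1 and Os03g0706500 for TB1, which is also known as FC1. All 4 were found among the 37859 genes of the deposited expression table, and by their identifiers they lie on chromosomes 1, 4, 6 and 3. The choice of genes came with these names, because the deposited tables hold identifiers alone.

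The RNA came from cultivar Nipponbare, the source of the rice reference genome, of Oryza sativa Japonica Group. One genotype was an osg1l2 single mutant and the other a wild type control, with 4 libraries each and no further allele or agent in either. All plants were raised in long days (16 h light at 28°C, 8 h dark at 26°C, 70% humidity) and sampled when they had spent 12 days under short days with 12 h of light. The tissue was meristems at early stages, enriched in PBMs (primary branch meristems) and ePBM/Ams (elongating primary branch meristems bearing axillary meristems). The labels state neither the kind of mutation nor the number of mutant lines, plants per library or separately grown sets. P-values therefore measure the spread between these libraries.

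An axillary meristem is a group of stem cells set up in the axil of a leaf or bract, from which a tiller, a panicle branch or a spikelet arises. In rice, LAX1 is a basic helix-loop-helix transcription factor needed to start axillary meristems, and LAX2 is a nuclear protein that binds LAX1 and acts with it. MOC1 is a GRAS-family regulator without which tillers hardly form. TB1 belongs to the TCP transcription factors and acts later and in the opposite sense, since it holds back the outgrowth of buds that have already formed. OsG1L2, the gene mutated here, belongs to the ALOG family of plant nuclear proteins, and the series places it in the control of inflorescence branching.

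Summed FPKM (fragments scaled by gene model length and by library size) lay between 213940 and 231675 per library, and 17960 to 18334 genes reached 1 FPKM. Read counts were not among the values used, so the depth is unknown. On the second principal component of log2(FPKM + 1), wild type replicate 2 lay at -28.4, while the other wild type libraries ranged from 4.87 to 10.8. Ratios of means are given with and without it. No check of the labels against the level of OsG1L2 itself was made here.

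All 4 genes were expressed at low levels in these meristems, between the 39.6 and 65.4 percentiles of all 37859 genes of the table in any library. Only 17960 to 18334 of these genes reached 1 FPKM in a library, so genes at or near 0 raise these percentiles. In wild type, LAX1 averaged 2.0 FPKM ± 0.646 (SD, n = 4), MOC1 1.51 FPKM ± 0.305 (SD, n = 4), TB1 1.02 FPKM ± 0.095 (SD, n = 4) and LAX2 0.205 FPKM ± 0.036 (SD, n = 4). FPKM is scaled for gene model length, and these levels were compared on the FPKM scale only. In the authors' deposited table the values of the 4 genes stood in the same order in both genotypes. The distances between genes differed there, because its values exceeded the mean FPKM by a different factor for each gene. LAX1 and MOC1, neighbours in this order, did not differ beyond their spread: LAX1 was the higher in 5 of 8 libraries, and the ratio of LAX1 to MOC1 ran from 0.407 to 1.89. Below them the order was the same in each library. MOC1 exceeded TB1 in 8 of 8 libraries, and TB1 exceeded LAX2 in 8 of 8, by 1.09 times in the closest.

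TB1, the repressor of bud outgrowth, was the gene that differed most between the genotypes. Wild type libraries 1 to 4 held 0.911, 0.994, 1.03 and 1.14 FPKM of TB1. The osg1l2 libraries held 0.286, 0.324, 0.608 and 0.592 FPKM. The genotypes did not overlap: the highest mutant library lay well under the lowest wild type library. Among the mutant libraries, replicates 1 and 2 were the lowest, at about the same level, and replicates 3 and 4 formed a higher pair. The mean in osg1l2 was 0.453 FPKM ± 0.171 (SD, n = 4), which is 0.444 of the wild type mean, and 0.441 of it without wild type replicate 2. By rank among all genes of the table, TB1 stood between the 51.1 and 53.4 percentiles in wild type and between the 43.0 and 48.2 percentiles in osg1l2. In dissected meristems, fewer cells of a type and less RNA per cell cannot be told apart.

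The test of this difference depended on which low genes were admitted. Genes were compared with limma on log2(FPKM + 1), with Benjamini-Hochberg adjustment over all genes tested. A filter at a mean of 1 FPKM over the 8 libraries admitted LAX1 and MOC1 but neither TB1, at 0.736 FPKM, nor LAX2, at 0.228 FPKM. With the filter at 0.1 FPKM, a level chosen after this was seen, all 4 were tested among 24356 genes. TB1 then changed by -0.48 ± 0.088 (SE) on the log2 scale, with a 95% interval of -0.68 to -0.28 (limma adjusted p = 0.029). It was the only call among the 4 genes, where 467 of all genes tested (1.92%) were called. The call was lost in 5 of 8 fits that left out 1 library at this filter (limma adjusted p up to 0.096): those without wild type replicate 1, 3 or 4, or without osg1l2 replicate 1 or 2. Calls over all genes also fell in these 5 fits, from 467 to between 242 and 355. In the fits that kept the TB1 call, 856 genes were called without wild type replicate 2. There were 284 without osg1l2 replicate 3 and 343 without osg1l2 replicate 4. Without any filter, TB1 had the same fold change and missed the threshold (limma adjusted p = 0.057), where 1.32% of 32542 genes were called. It also missed it at the 0.1 FPKM filter with the replicate number as a block (limma adjusted p = 0.056). An exact two-sided permutation test of the 8 libraries gave p = 0.0286, the smallest that 4 against 4 allows. Separation of the genotypes was itself common: 11.3% of the genes of at least 0.1 FPKM showed it, and 7.27% showed it with osg1l2 the lower.

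The size of the TB1 difference on the log2(FPKM + 1) scale is understated, because the pseudocount is as large as the level itself. With a pseudocount of 0.1 the change was -1.07 ± 0.22 (SE) on the log2 scale (limma at the 0.1 FPKM filter, adjusted p = 0.048). The plain ratio of the mean FPKM values gave -1.17 on the log2 scale. In the authors' deposited table, TB1 had a log2 fold change of -1.23 and a q-value of 0.0024. Among the 2596 genes whose mean lay within 1.5 times that of TB1, 59 (2.27%) had a log2(FPKM + 1) change as low as TB1 or lower.

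**Figure D1:**
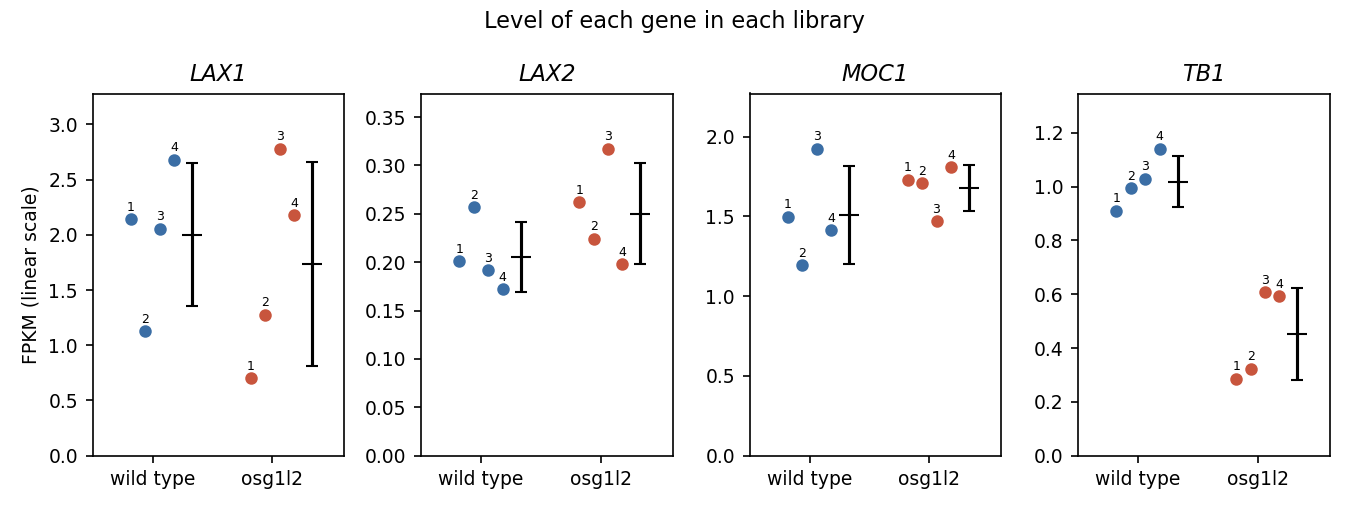
FPKM of LAX1, LAX2, MOC1 and TB1 in each library (y axis, linear, its own scale in each panel), with blue points for wild type and red points for osg1l2, the replicate number above each point, and black bars for the mean ± SD of 4 libraries. TB1 alone shows no overlap, with wild type between 0.911 and 1.14 FPKM and osg1l2 between 0.286 and 0.608 FPKM.

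MOC1, the GRAS regulator of tiller formation, did not pass the FPKM test between genotypes. Its values were 1.497, 1.19, 1.92 and 1.42 FPKM in wild type libraries 1 to 4 and 1.73, 1.71, 1.47 and 1.81 FPKM in osg1l2 libraries 1 to 4. The genotypes overlapped: the highest value of all belonged to a wild type library, and the lowest mutant library lay inside the wild type range. The wild type libraries spread more widely than the mutant ones, where the mean was 1.68 FPKM ± 0.145 (SD, n = 4). The log2 fold change was 0.10 with a 95% interval of -0.11 to 0.31 (limma on genes of at least 1 FPKM, adjusted p = 0.59; 1.93% of 18254 genes called). The exact permutation test, two-sided over 8 libraries, gave p = 0.343. The ratio of osg1l2 to wild type means was 1.11, and 1.04 without wild type replicate 2, which held the lowest MOC1 value.

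For MOC1 the authors' own comparison and the limma test run here on the FPKM values gave different calls. The authors' deposited table listed a value of 3.99 in wild type and 5.18 in osg1l2, with 0.38 as the log2 fold change and 0.035 as the q-value. Both sources put MOC1 higher in osg1l2, and the interval from the FPKM table reached 0.31 on the log2(FPKM + 1) scale and 0.48 with a pseudocount of 0.1. In the authors' deposited table, MOC1 and TB1 were thus the 2 of the 4 genes with a q-value under 0.05, in opposite directions, where 760 of 37619 entries (2.02%) passed. The labels and headers do not state how that table combined the libraries.

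LAX1, the factor that starts axillary meristems, varied widely between libraries of a genotype and did not pass the test between genotypes. It was at 2.15, 1.13, 2.06 and 2.68 FPKM in wild type libraries 1 to 4. In the osg1l2 libraries it was at 0.704, 1.28, 2.78 and 2.18 FPKM. The osg1l2 values reached both below and above every wild type value, and the mutant extremes differed by 3.95 times. The mean in osg1l2 was 1.73 FPKM ± 0.924 (SD, n = 4). The log2 fold change was -0.17 with a 95% interval of -0.74 to 0.39 (limma, adjusted p = 0.75). A fall of LAX1 as large as the TB1 difference on this scale lies inside that interval. In the authors' deposited table the log2 fold change of LAX1 was -0.07 and the q-value 0.96. The sign turned without osg1l2 replicate 1, where the log2 fold change was 0.03 (limma adjusted p = 0.97). Without wild type replicate 2, the ratio of osg1l2 to wild type means moved from 0.867 to 0.756.

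The spread of LAX1 was wide for its level. Its standard deviation within genotypes was 0.432 on the log2(FPKM + 1) scale, against a median of 0.124 over the 4143 genes within 1.5 times its mean FPKM, and 95.7% of those genes had a standard deviation no larger. The same measure placed MOC1 at 54.4%, TB1 at 50.0% and LAX2 at 11.8% among genes of their own level. In osg1l2, LAX1 and TB1 shared their split of the libraries: both were lower in replicates 1 and 2 than in replicates 3 and 4. MOC1 did not follow it, since replicate 3 held its lowest mutant value, nor did LAX2, which was lowest in osg1l2 replicate 4. In wild type, LAX1 was lowest in replicate 2 and TB1 in replicate 1, while both were highest in replicate 4. Whether LAX1 and TB1 vary together across libraries was not tested.

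LAX2, the partner of LAX1, was low in each library. Wild type libraries 1 to 4 held 0.201, 0.257, 0.192 and 0.172 FPKM, and osg1l2 libraries 1 to 4 held 0.262, 0.224, 0.317 and 0.198 FPKM. The ranges overlapped, although mutant replicates 1 and 3 exceeded every wild type library. The mean in osg1l2 was 0.250 FPKM ± 0.052 (SD, n = 4), a ratio of 1.22 to wild type and of 1.33 without wild type replicate 2. The log2 fold change was 0.05 with a 95% interval of -0.06 to 0.17 (limma at the 0.1 FPKM filter, adjusted p = 0.63). On the scale with a pseudocount of 0.1 it was 0.19, with an interval of -0.23 to 0.62. The exact permutation test of LAX2 over libraries gave p = 0.20 (two-sided). In the authors' deposited table the log2 fold change of LAX2 was 0.25 and the q-value 1.

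**Figure D2:**
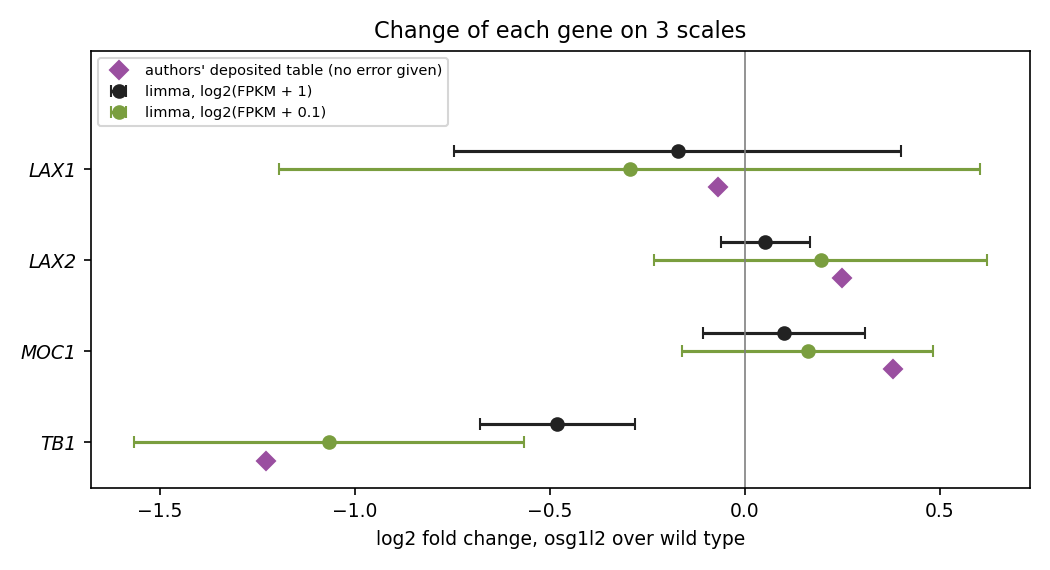
Log2 fold change of osg1l2 over wild type for each gene (x axis), from limma at the 0.1 FPKM filter with pseudocounts of 1 (black) and 0.1 (green), each with its 95% interval, and from the authors' deposited table (purple diamonds, no error given). TB1 is the gene whose intervals exclude 0, at -0.48 and -1.07 with the pseudocounts of 1 and 0.1, and the authors' deposited table gives -1.23.

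**Figure D3:**
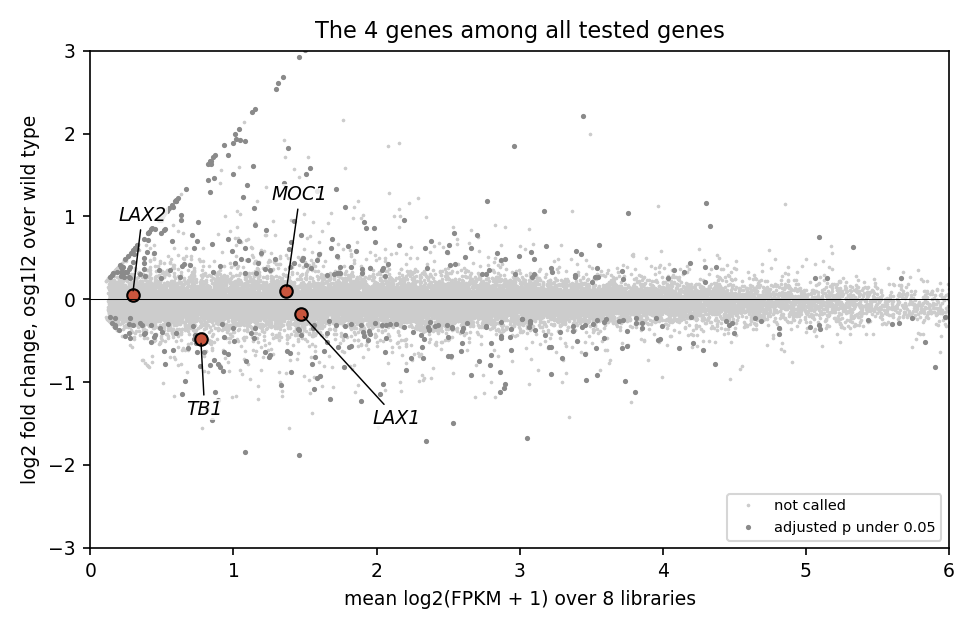
Log2 fold change (y axis) against mean log2(FPKM + 1) over 8 libraries (x axis) for 23876 of the 24356 genes of at least 0.1 FPKM, with 480 genes outside the axes, dark grey for limma adjusted p under 0.05 and red for the 4 genes. LAX1, LAX2 and MOC1 lie near 0, between -0.17 and 0.10, and TB1 lies at -0.48, a change that some genes that were not called also reach.

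The level of TB1 was also set against the other genes within each library, where a common scaling of the library cancels. TB1 was at 0.608, 0.832, 0.535 and 0.806 of the MOC1 level in wild type libraries 1 to 4, and at 0.166, 0.190, 0.414 and 0.328 of it in the osg1l2 libraries. These ratios did not overlap, and MOC1 exceeded TB1 by 1.44 times in the median wild type library and by 4.16 times in the median osg1l2 library. TB1 itself did not overlap between the genotypes, so the ratios of TB1 to the other genes restate much of that difference. Against LAX2, TB1 stood 3.87 to 6.64 times higher in wild type and 1.09 to 2.99 times higher in osg1l2. Against LAX1, TB1 stood at 0.425 to 0.883 of its level in wild type and at 0.219 to 0.407 of it in osg1l2. The last pair of ranges nearly touched, and the wild type range was stretched by replicate 2, whose ratio was the highest.

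Unequal change was tested for the 6 pairs of genes by exact two-sided permutation of the libraries. On the log2(FPKM + 1) scale, the change of MOC1 exceeded that of TB1 by 0.58 and the change of LAX2 exceeded it by 0.53, each with p = 0.0286 in the exact test and 0.086 after Benjamini-Hochberg adjustment over the 6 pairs. For LAX1 against TB1 the difference was 0.31, less than its spread, with p = 0.229 in the exact test, and it was 0.16 without wild type replicate 2. On the plain ratios, an alternative added after seeing the data, the 3 pairs with TB1 each gave p = 0.0286 (exact, 0.057 after adjustment), with differences of 0.93 for LAX1, 1.42 for MOC1 and 1.53 for LAX2 on the log2 scale. The 3 pairs share TB1, so they are independent neither of each other nor of the TB1 difference itself. The 4 against 4 design gives no smaller p, so no pair could pass the adjusted threshold unless at least 4 pairs were separated. The 3 pairs among LAX1, LAX2 and MOC1 differed by less than their spread, with exact p between 0.429 and 0.657 on the log2(FPKM + 1) scale and between 0.40 and 0.686 on plain ratios.

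**Figure D4:**
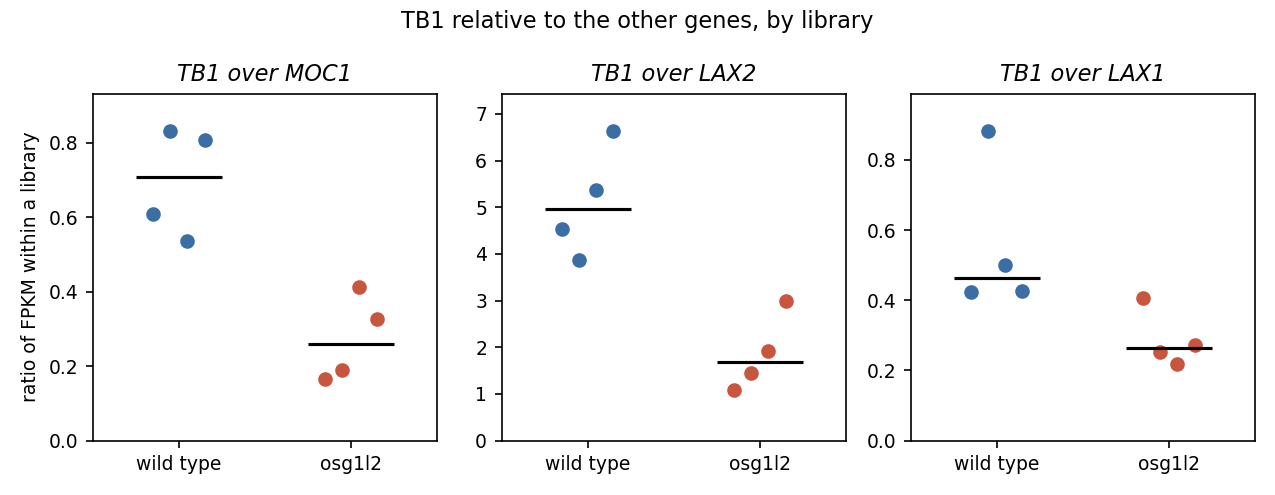
Ratio of TB1 to MOC1, to LAX2 and to LAX1 within each library (y axis, ratio of FPKM, linear), with blue points for wild type, red points for osg1l2 and black lines for the median of 4 libraries. The ratio to MOC1 lies between 0.535 and 0.832 in wild type and between 0.166 and 0.414 in osg1l2.

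The deposited tables also put these genes on different scales. For LAX1, MOC1 and TB1 the value in the authors' deposited table for wild type was 3.13, 2.64 and 3.34 times their mean wild type FPKM. For osg1l2 the factors were 3.44, 3.09 and 3.21, so those of LAX1 and MOC1 were higher in the mutant than in wild type and that of TB1 was lower. For LAX2 the factor was 1.89 in wild type and 1.84 in osg1l2. Over 23544 genes of at least 0.1 FPKM in each genotype the median of this factor was 1.69 in wild type and 1.72 in osg1l2, and in wild type LAX1, MOC1 and TB1 stood at the 92.0, 84.2 and 94.6 percentiles. Levels of the 2 tables were therefore not mixed.

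For each of the 4 genes, the gene whose log2(FPKM + 1) values over the 8 libraries had the highest Pearson correlation with it was looked up among the genes of at least 1 FPKM. For TB1 this was Os01g0257100, with r = 0.99 over 8 libraries and 0.95 after the genotype means were removed. It lay between 1.23 and 1.89 FPKM in wild type and between 0.204 and 0.655 FPKM in osg1l2, with a log2 fold change of -0.87. Since it was picked for its likeness to TB1 over both genotypes, its lower level in osg1l2 follows from the choice. The value of 0.95 comes from the same 8 libraries used to pick it, so it is no separate check. For LAX1 it was Os08g0524800 (r = 0.97), for LAX2 Os10g0521300 (r = 0.97) and for MOC1 Os01g0783200 (r = 0.97). The log2 fold changes of these last 3 were -0.08, 0.12 and 0.19. At r of at least 0.9 stood 235 of 18254 genes for TB1 and 26 of 18254 for LAX2. Of 18253 genes each, LAX1 had 16 and MOC1 had 52. These r values span both genotypes, and TB1 alone of the 4 did not overlap between them. How much of its count comes from that was not tested. The libraries share their genotype difference, depth and processing, so a likeness over 8 points is a description only. The sources used here do not pair these identifiers with names.

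Of the 8 nearest genes of at least 1 FPKM on either side of the 4 genes, by identifier order, 1 passed the test, where 1.93% of all genes did. Os04g0396800, after LAX2, averaged 13.4 FPKM in wild type and 11.1 FPKM in osg1l2. Its log2 fold change was -0.25 (limma adjusted p = 0.026), and it was singled out after its values were seen. On either side of TB1 the log2 fold changes were -0.40 and -0.05 (limma adjusted p = 0.23 and 0.74).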

How the data were processed

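RNA sequencing of 8 libraries was analysed, 4 of each genotype. The authors deposited 1 FPKM value per gene and library, and a table of their own comparison with 37619 entries. The authors deposited in it a score per genotype, whose unit and way of combining libraries the header does not name. Per the file headers, its further columns are a q-value and a log2 fold change, by a test that no source states. The submitters' processing notes name the build IRGSP-1.0. Aligner and quantifier: not given in the sources used here. Since FPKM is an estimate from which no whole reads could be recovered, no count test was run. Strandedness is not given, so antisense reads cannot be separated.

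The test ran on log2(FPKM + 1) of genes whose mean reached 1 FPKM, by limma 3.58.1 under R 4.3.3 (intensity trend, two-sided, Benjamini-Hochberg, call at adjusted p under 0.05). Filters at 0.1, 0.2 and 0.5 FPKM were added after TB1 and LAX2 were seen to lie under 1 FPKM. Genes listed at 0 in all 8 libraries were left out of the fit without a filter. The fits were tested on simulated data. Exact permutation tests used scipy 1.17.1, with Python 3.11.15, numpy 2.4.6 and pandas 2.3.3; figures used matplotlib 3.10.9. The rule for naming took the 4 genes whatever their values and, for each, the tested gene most correlated with it. Os04g0396800 falls outside it.

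The 4 genes, the tests and the alternatives were chosen with earlier results of these data known. A list of other branching genes and meristem markers was not used, and the tissue label was not checked, because the reference gene table (assembly ASM3414082v1) held 1 of 37859 identifiers and none of the 4. No sequences were available to print.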

Additional observations from a re-analysis of the deposited data

How the results depend on the processing

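No alternative put TB1 higher in osg1l2, and TB1 was called in some settings only. Because the genotypes did not overlap, neither a left-out library nor another pseudocount could have turned the sign of TB1. At filters of 0.1, 0.2 and 0.5 FPKM its log2 fold change of -0.48 passed (limma adjusted p = 0.029, 0.032 and 0.036), as it did at 0.1 FPKM with library quality weights (-0.46, adjusted p = 0.024) and with a pseudocount of 0.1 (-1.07, adjusted p = 0.048). Of the 24356 genes at 0.1 FPKM, 1011 were called with the weights and 477 with that pseudocount, against 467 with neither. With each library left out at 0.1 FPKM it ran from -0.53 to -0.43, and it passed in 3 of 8 fits (limma adjusted p from 0.034 to 0.096): those without wild type replicate 2 (-0.49), osg1l2 replicate 3 or osg1l2 replicate 4 (both -0.53). Such fits have fewer libraries, and their calls over all genes ranged from 242 to 856, against 467 with no library left out. The cause of the lost calls was not tested. At the 1 FPKM filter, which gives TB1 and LAX2 values without a test, pseudocounts of 0.1 and 0.5 moved TB1 to -1.07 and -0.69, and 0.1 moved LAX2 to 0.19, by construction.

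LAX1, LAX2 and MOC1 were called in no setting that tested them. With libraries left out, LAX1 ran from -0.35 to 0.033 (without osg1l2 replicate 1, at either filter), LAX2 from 0.03 to 0.07 and MOC1 from 0.04 to 0.18. The difference between the changes of LAX2 and MOC1, -0.05, turned to 0.034 at a pseudocount of 0.1, to 0.11 on plain ratios and to 0.033 without wild type replicate 2, the other left-out libraries giving -0.13 at the lowest. No other pair turned; without wild type replicate 2, LAX1 minus LAX2 moved from -0.22 to -0.40 and LAX1 minus TB1 from 0.31 to 0.16, with no call in either case.

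The count of 352 called genes became 153 at a mean of at least 5 FPKM, where fewer genes are tested and none of the 4, 152 with the replicate block and 1097 with library quality weights, and 155 to 826 with a library left out. The replicate numbers gave no pairing (same-numbered libraries deviated from their genotype means with correlations of 0.069, -0.017, -0.091 and -0.12). Each replicate number held both genotypes, so by construction the replicate block changed no log2 fold change of the 4 genes (TB1 -0.48, LAX1 -0.17, MOC1 0.10, LAX2 0.05). The quantile scaling, fitted at the 1 FPKM filter, gave no log2 fold change for TB1 and LAX2. The limit set by depth could not be assessed without read numbers.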

Other observations

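None of the 8 sets of 4 values (4 genes in 2 genotypes) held a library far enough from the others to pass the 0.829 limit on its gap over the range; the largest share was 0.700, for MOC1 in osg1l2, where replicate 3 was the lowest.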
